A study of Mus musculus with 19 samples.

Results

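The genes described here are 7 transcription factors that mark types of retinal ganglion cells (RGCs), Eomes, Tbr1, Tbx20, Satb1, Foxp1, Foxp2 and Neurod2, together with Opn4, which encodes the photopigment melanopsin. They were taken as a list of names, as genes known to mark or specify RGC types, with no threshold on measured values, by a choice made with earlier results of these data known. These are 8 of the 47069 genes in the deposited count tables. Their RNA was measured in mouse retina at E16.5 (embryonic age in days), when RGC axons choose a side at the optic chiasm. Cells were sorted as RGCs that project to the same side of the brain (ipsilateral, iRGCs) or cross to the other side (contralateral, cRGCs). These names stand for the sorted samples, which also held RNA of progenitor and other cell type markers, as given below.

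Both populations came from a C57/DBA F1 background labelled wild type, with male and female embryos pooled, and both carried the Cre-dependent nuclear reporter Rosa26 CAG-[Stop]-Sun1-GFP. The iRGCs were labelled by ET33 Sert-Cre, a transgene driven by regulatory sequence of the serotonin transporter gene Slc6a4. The cRGCs were labelled by Pou4f2-Cre, in which Cre sits in the locus of Brn3b, and the ventrotemporal retina, where most iRGCs arise, was cut away before these cells were sorted. GFP is kept by any cell in which Cre was once active and by its descendants, so the sort follows the history of the Cre and not its expression at the time of collection. How many embryos went into each RNA library is not given in the sources used here, and p-values below measure the spread between libraries, 3 per population, which may be in part technical. The chromatin accessibility samples of the series were not analysed here.

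Sequencing depth was even. Counts assigned to genes ran from 28193178 in the first iRGC library to 33638083 in the third cRGC library. Levels below are CPM, a gene's count relative to all counts of its library, after scaling by edgeR's TMM factors, given as mean ± SD with n = 3 libraries per population. Fold changes are log2 values of iRGC over cRGC with their standard error (SE), and a gene passed the test at an adjusted p under 0.1 in edgeR's quasi-likelihood test with Benjamini-Hochberg adjustment over 15941 tested genes. All 8 genes had enough counts to be tested.

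RGCs are the output neurons of the retina, and they fall into many types that differ in dendrite shape, light response and brain target. Types are recognised by combinations of transcription factors, several of which are T-box or forkhead proteins that act after the cell has left the cycle. The intrinsically photosensitive RGCs (ipRGCs) contain melanopsin, respond to light by themselves and drive pupil and circadian responses. Eomes is required for their formation, and Tbx20 is found in the same cells.

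The driver genes were read first, as a check of the labels. Slc6a4 stood at 2.06, 33.4 and 116 CPM in the 3 iRGC libraries and at 48.1, 35.4 and 30.5 CPM in the 3 cRGC libraries. The first iRGC library lay below every cRGC library, the third lay above them, and the populations overlapped (log2 fold change 0.41, SE 0.93, edgeR with Benjamini-Hochberg adjusted p = 0.768). By this gene the library labelled Sert replicate 1, called the first iRGC library throughout, did not match its label. Zic2, the transcription factor that directs the ipsilateral choice, was higher in every iRGC library, at 154.5 ± 19.9 against 61.0 ± 4.38 CPM. Its neighbour Zic5 was higher in every one as well, at 50.6 ± 4.66 against 17.3 ± 3.12 CPM. Ephb1 (74.9 ± 30.2 against 89.9 ± 23.4 CPM, log2 fold change -0.26) was also read as an iRGC marker, as was Igfbp5 (175 ± 45.1 against 164 ± 51.8 CPM, 0.09). Both overlapped between the populations and did not pass the test. Pou4f2 was 74.7, 133 and 98.3 CPM in iRGCs and 191, 196 and 293 CPM in cRGCs (log2 fold change -1.15, SE 0.23, edgeR with Benjamini-Hochberg adjusted p = 0.00424). Because the Cre of the cRGC line sits in the Pou4f2 locus, an effect of the allele on this gene and a difference between the populations cannot be told apart. The calls of the 8 genes and the counts of the lists are also given without the first iRGC library.

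Of the 8 genes, 4 were lower in iRGCs (Eomes, Tbx20, Opn4 and Satb1), 1 was higher (Foxp1), and 3 did not pass the test (Foxp2, Tbr1 and Neurod2). Of all tested genes, 46.4% passed, 23.1% lower and 23.3% higher in iRGCs, beside 62.5% of the 8 genes. The median log2 fold change of the 8 genes was -1.64, against -0.00 over all tested genes, but this median is the midpoint of Tbr1 (-1.63) and Neurod2 (-1.65), whose SEs were 1.41 and 1.88. For 5 of the 8, every iRGC library lay on 1 side of every cRGC library, which was so for 55.3% of all tested genes. With a log2 fold change beyond 1 in size also required, 3 genes were lower, against 11% of all tested genes. In bulk samples such as these, fewer cells of a type and less RNA per cell cannot be told apart. The paper describes the iRGCs as the younger population on average at collection, because their birth begins later. Side of projection, age, retinal region and Cre line differ together between the populations, so their parts in a change cannot be told apart either. Leaving out the first iRGC library left the same 5 genes past the threshold, with log2 fold changes of -1.74 for Eomes, -2.21 for Tbx20, -2.62 for Opn4, -0.43 for Satb1 and 0.53 for Foxp1.

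**Figure D1:**
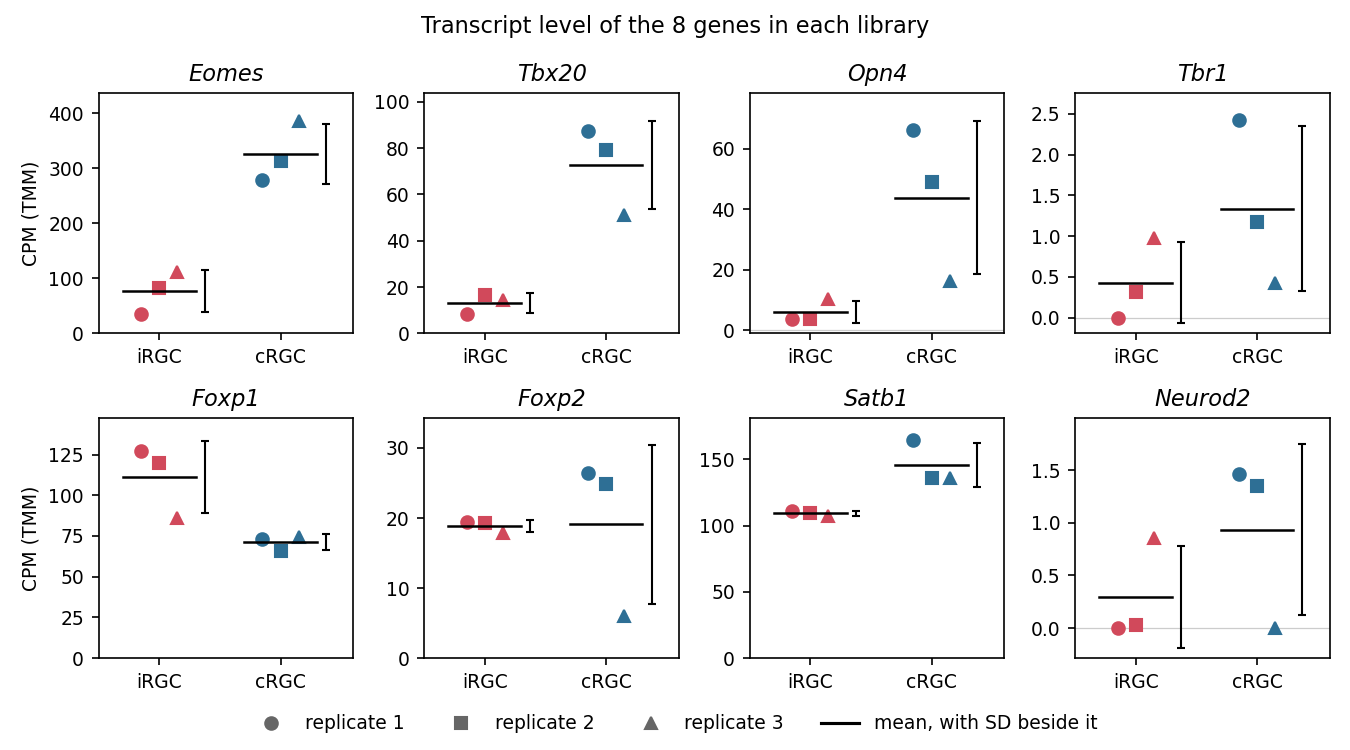
TMM-scaled CPM (vertical axes, linear) of the 8 genes in the 3 iRGC and 3 cRGC libraries, 1 panel per gene, each point a library, the line the mean and the bar beside it the SD. Eomes, Tbx20, Opn4 and Satb1 lay lower in all 3 iRGC libraries and Foxp1 lay higher, while Foxp2, Tbr1 and Neurod2 overlapped.

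The ipRGC genes showed the widest gaps. Eomes (Tbr2), a T-box factor, lies on GRCm38 at chr9:118478212-118486132 on the plus strand. Its counts were 1123, 2672 and 3568 in the iRGC libraries and 7258, 9093 and 11968 in the cRGC libraries, or 77.1 ± 38.5 against 326 ± 54.7 CPM. The lowest cRGC library stood 2.48-fold above the highest iRGC library. The first iRGC library was the lowest of all, at 36.1 CPM, below the other iRGC libraries at 82.6 and 112.5 CPM. The log2 fold change was -2.08 (SE 0.35), a 4.23-fold lower level in iRGCs (edgeR with Benjamini-Hochberg adjusted p = 0.00164). Eomes shares 2.84% of its exonic bases with Gm33460 on the opposite strand, and whether counting used strand is not stated.

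Tbx20, a second T-box factor, lies at chr9:24718138-24774303 on the minus strand. It had 256, 543 and 461 counts in the iRGC libraries and 2277, 2295 and 1586 in the cRGC libraries, or 13.2 ± 4.43 against 72.6 ± 19.0 CPM. The third cRGC library was the lowest of its population, at 51.2 CPM, and still lay above the highest iRGC library, at 16.8 CPM. Tbx20 was 5.51-fold lower in iRGCs, a log2 fold change of -2.46 (SE 0.29, edgeR with Benjamini-Hochberg adjusted p = 0.000356).

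Opn4, the melanopsin gene, lies at chr14:34590618-34600142 on the minus strand and was the gene with the largest fold change of the 8. Counts were 122, 127 and 328 in iRGCs and 1718, 1423 and 504 in cRGCs, or 6.06 ± 3.71 against 43.8 ± 25.3 CPM. No library overlapped, but the cRGC libraries themselves spread 4.06-fold, with 66.0 and 49.1 CPM in the first and second and 16.3 CPM in the third. The third iRGC library, at 10.3 CPM, lay nearest to it. The difference was 7.22-fold, a log2 fold change of -2.85 (SE 0.56, edgeR with Benjamini-Hochberg adjusted p = 0.0035). This log2 fold change was -3.25 without the third cRGC library and -2.45 without the first. Without the third iRGC library it was -3.49. Opn4 shares 4.39% of its exonic bases with Gm49012 on the opposite strand.

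The promoters of these 3 genes are shown because the genes fell together and 2 of them encode T-box factors. Each run is 250 bases before to 50 bases after the RefSeq start, GRCm38.p6, read 5′ to 3′ on the gene's strand, from chr9:118477939-118478238 (plus) for Eomes, chr9:24774254-24774553 (minus) for Tbx20 and chr14:34600093-34600392 (minus) for Opn4. Capitals mark GTGTGA, the T-box core.
Eomes: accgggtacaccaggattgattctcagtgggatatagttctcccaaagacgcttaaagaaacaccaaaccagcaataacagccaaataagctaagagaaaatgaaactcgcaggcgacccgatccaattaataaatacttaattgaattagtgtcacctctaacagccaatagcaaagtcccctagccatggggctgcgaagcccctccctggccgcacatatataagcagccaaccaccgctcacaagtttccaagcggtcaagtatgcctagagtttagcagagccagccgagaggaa
Tbx20: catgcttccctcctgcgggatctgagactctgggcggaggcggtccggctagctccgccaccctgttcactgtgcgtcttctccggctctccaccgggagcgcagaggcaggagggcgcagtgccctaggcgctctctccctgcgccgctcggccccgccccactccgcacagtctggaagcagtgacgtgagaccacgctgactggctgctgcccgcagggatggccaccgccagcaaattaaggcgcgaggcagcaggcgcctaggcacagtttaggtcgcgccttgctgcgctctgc
Opn4: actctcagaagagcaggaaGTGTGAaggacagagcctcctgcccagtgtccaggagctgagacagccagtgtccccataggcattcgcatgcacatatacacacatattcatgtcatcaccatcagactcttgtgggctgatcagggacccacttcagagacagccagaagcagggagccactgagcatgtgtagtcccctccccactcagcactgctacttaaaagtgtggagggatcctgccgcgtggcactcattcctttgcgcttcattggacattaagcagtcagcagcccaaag
The letters searched on both strands were GTGTGA, the forkhead core TGTTTA and the POU and homeodomain core TAATTA, which reads the same on both strands. Among all 32851 promoters of this length, 14.5% held GTGTGA, 13.4% TGTTTA and 5.29% TAATTA. The Opn4 window held GTGTGA once, beginning 231 bases before the start on the gene's own strand, and neither other motif. The Eomes and Tbx20 windows held none of the 3. Outside these genes, GTGTGA also stood in the window of the second listed start of Foxp1, the gene called higher in iRGCs. Nothing about the changes is read from these matches. A match is a description of letters and not a binding site, and its absence says only that these letters are not in these windows. GC content was 47.3% for Eomes, 68.3% for Tbx20 and 53.7% for Opn4, against a median of 52.7% over all promoters.

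Of the forkhead genes, Foxp1 passed the test and Foxp2 did not, and the difference between them was not tested. Foxp1, a forkhead repressor found in RGC types that may also contain Foxp2, lies at chr6:98925338-99522721 on the minus strand. It had 3961, 3870 and 2726 counts in the iRGC libraries and 1908, 1913 and 2310 in the cRGC libraries, or 111 ± 22.0 against 71.3 ± 4.62 CPM. Every iRGC library lay above every cRGC library, although the third iRGC library, at 86.0 CPM, stood close to the third cRGC library, at 74.5 CPM. Foxp1 was 1.56-fold higher in iRGCs, a log2 fold change of 0.64 (SE 0.16, edgeR with Benjamini-Hochberg adjusted p = 0.0106).

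Foxp2, the second forkhead factor, which marks the F-RGCs, lies at chr6:14901349-15441977 on the plus strand. Its counts were 605, 623 and 568 in iRGCs and 687, 721 and 185 in cRGCs. In CPM the iRGC libraries were close to one another, at 19.5, 19.3 and 17.9, whereas the cRGC libraries held 26.4, 24.9 and 5.97. The first and second cRGC libraries lay above all iRGC libraries and the third lay below them. The log2 fold change was -0.01 (SE 0.45, edgeR with Benjamini-Hochberg adjusted p = 0.984), its sign turned with the settings, and without the third cRGC library it was -0.43 (edgeR with Benjamini-Hochberg adjusted p = 0.137). With this SE, the result does not show that Foxp2 was alike in both populations.

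Satb1, a chromatin organiser that shapes the dendrites of direction-selective RGCs, lies at chr17:51736187-51833290 on the minus strand. Its counts were 3451, 3543 and 3411 in the iRGC libraries and 4285, 3949 and 4218 in the cRGC libraries. The 3 iRGC libraries were nearly equal, at 109 ± 1.73 CPM, and all lay below the cRGC libraries, at 165, 136 and 136 CPM. Satb1 was 1.33-fold lower in iRGCs, a log2 fold change of -0.41 (SE 0.11, edgeR with Benjamini-Hochberg adjusted p = 0.0168). The call was lost when libraries were scaled by their totals alone, at a log2 fold change of -0.21 (edgeR with Benjamini-Hochberg adjusted p = 0.165). That scaling raised the median of all genes by 0.204 and the share of calls that were higher in iRGCs from 50.1% to 64.2%.

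Tbr1 and Neurod2 had few counts. Tbr1, the T-box factor of RGCs with dendrites in the OFF layers, lies at chr2:61802930-61814114 on the plus strand and had 0, 10 and 31 counts in the iRGC libraries and 63, 34 and 13 in the cRGC libraries. The populations overlapped, with 0, 0.309 and 0.977 CPM against 2.42, 1.17 and 0.420 CPM and a log2 fold change of -1.63 (SE 1.41, edgeR with Benjamini-Hochberg adjusted p = 0.403). Neurod2, a basic helix-loop-helix factor of differentiating neurons that amacrine cells also use, lies at chr11:98325415-98329648 on the minus strand. It had 0, 1 and 27 counts in iRGCs and 38, 39 and 0 in cRGCs, so each population had a library at 0 (log2 fold change -1.65, SE 1.88, edgeR with Benjamini-Hochberg adjusted p = 0.534). A count of 0 allows up to 3 counts, or 0.106 CPM in the first iRGC library and 0.0892 CPM in the third cRGC library, for counting error only. With SEs this wide, neither the size nor the direction of a difference in either gene can be read from these libraries.

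**Figure D2:**
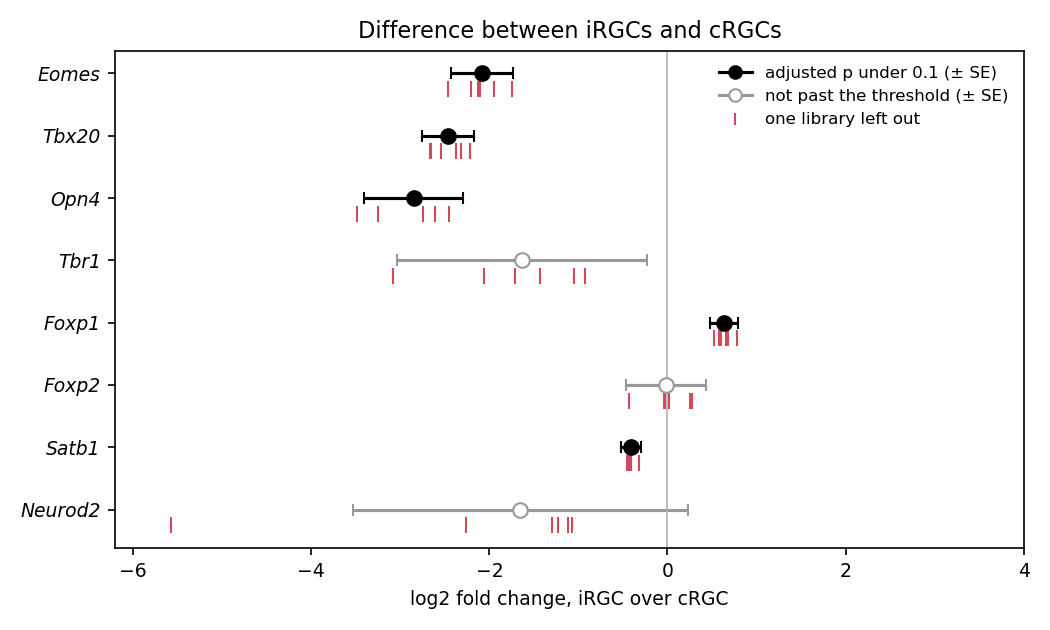
Log2 fold change of iRGC over cRGC (horizontal axis) for the 8 genes, with the point the edgeR estimate, the bar its SE and the red ticks the estimates with 1 library left out. Opn4, Tbx20 and Eomes lay at -2.85, -2.46 and -2.08, Foxp1 alone was past the threshold on the higher side at 0.64, and Tbr1 and Neurod2 had the widest bars.

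Levels of different genes were compared per kilobase of exon, as CPM divided by the summed length of the gene's exons. In iRGCs the order was Eomes (18.5 ± 9.26 CPM per kilobase), Foxp1 (8.07 ± 1.60), Satb1 (5.75 ± 0.0907), Opn4 (2.05 ± 1.25), Foxp2 (1.15 ± 0.0515), Tbx20 (1.10 ± 0.369), Neurod2 (0.0936 ± 0.154) and Tbr1 (0.0782 ± 0.0911). Eomes and Foxp1, Foxp2 and Tbx20, and Neurod2 and Tbr1 were neighbours whose libraries overlapped. In cRGCs Eomes led at 78.5 ± 13.2 CPM per kilobase, followed by Opn4 (14.8 ± 8.55), Satb1 (7.66 ± 0.866), Tbx20 (6.05 ± 1.59), Foxp1 (5.19 ± 0.336), Foxp2 (1.17 ± 0.697), Neurod2 (0.298 ± 0.259) and Tbr1 (0.244 ± 0.184). Of these neighbours, Eomes and Opn4, and Foxp1 and Foxp2, did not overlap. By mean level Eomes stood first in both populations, and the ipRGC genes below it moved down the order in iRGCs.

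Pan-RGC markers, genes shared widely among RGC types, fell as well. Of 10 such markers, 9 were lower in iRGCs and Thy1 did not pass the test. Their median log2 fold change was -1.95. Their summed level was 2103, 2950 and 4636 CPM in the iRGC libraries and 11792, 10825 and 13452 CPM in the cRGC libraries, with the neurofilament gene Nefm the most abundant. Slc17a6, the vesicular glutamate transporter, fell by 2.07 on the log2 scale, and Rbpms, an RNA-binding protein of all RGCs, fell by 2.00. Retinal progenitor markers moved the other way, with 12 of 12 higher in iRGCs and summed levels of 8948, 7833 and 6674 against 748, 2031 and 1269 CPM, with the cyclin gene Ccnd1 the most abundant. Neurogenic precursor markers were higher for 8 of 8, at 1439, 1663 and 1376 against 307, 524 and 465 CPM, with Hes6 the most abundant. No marker of these 3 lists was at 0 in any library. The progenitor sum lay above the pan-RGC sum in every iRGC library and below it in every cRGC library. An iRGC level here is thus that of a sorted sample and not of RGCs alone. The part of the markers in the changes of the 8 genes was not tested. The comparison with pan-RGC counts that follows cannot decide it, because 3 against 3 libraries give no p below 0.1.

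**Figure D3:**
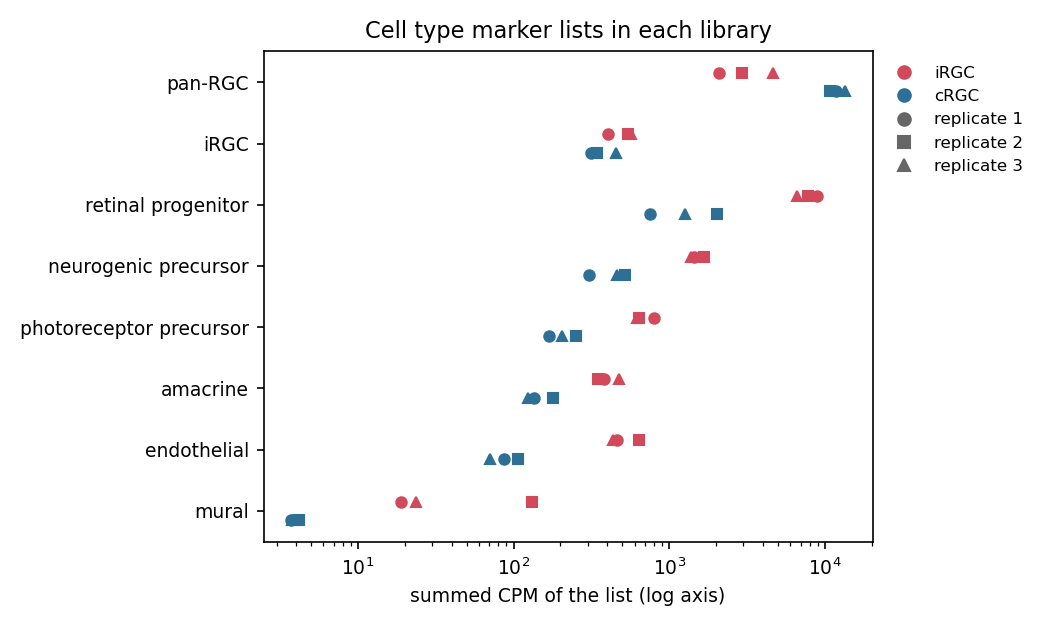
Summed TMM-scaled CPM of the marker lists (logarithmic axis) in each of the 6 libraries. Pan-RGC sums lay between 2103 and 4636 CPM in iRGCs and between 10825 and 13452 CPM in cRGCs, while retinal progenitor sums lay between 6674 and 8948 CPM in iRGCs and between 748 and 2031 CPM in cRGCs.

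To set each gene against the pan-RGC markers of its own library, its count was divided by the summed count of these 10 markers. The values were tested over libraries in a two-sided exact permutation test. In it 3 against 3 libraries cannot give a p below 0.1, so no gene could pass at a p under 0.1. Eomes stood at 17.2, 28.0 and 24.3 counts per 1000 pan-RGC counts in iRGCs and 23.7, 29.0 and 28.7 in cRGCs. On this measure the populations overlapped, and the difference of the log2 values was -0.25 (exact permutation p = 0.4). The exact permutation p-values printed here are not adjusted. With Benjamini-Hochberg adjustment over the 8 genes the exact permutation p was 0.533 for each of Eomes, Tbx20 and Opn4. Tbx20 gave 3.91, 5.69 and 3.14 against 7.42, 7.32 and 3.81, a difference of -0.52 (exact permutation p = 0.3). The third library was the lowest in each population, and the populations overlapped. Opn4 gave 1.87, 1.33 and 2.23 against 5.60, 4.54 and 1.21, a difference of -0.82 (exact permutation p = 0.4), with the third cRGC library below all iRGC libraries. Without that library neither Tbx20 nor Opn4 overlapped, and the differences were -0.84 and -1.51, while without the first cRGC library they were -0.36 and -0.40.

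Because the summed pan-RGC level itself differed by -1.97 on the log2 scale, a gene with equal CPM in both populations stands at 1.97 on this measure, and 79.2% of all tested genes were higher in every iRGC library. Eomes, Tbx20 and Opn4 were not among these, and 0.608% of all tested genes were lower in every iRGC library. The values of the other factors are to be read against the 1.97. Foxp1 stood at 60.6, 40.6 and 18.5 counts per 1000 pan-RGC counts in iRGCs and at 6.22, 6.10 and 5.54 in cRGCs, a log2 difference of 2.59. Satb1 stood at 52.8, 37.1 and 23.2 against 14.0, 12.6 and 10.1, a difference of 1.56, opposite in sign to its difference in CPM. Foxp2 stood at 9.25, 6.53 and 3.86 against 2.24, 2.30 and 0.444, a difference of 2.22. Each of these 3 genes was higher in every iRGC library than in any cRGC library, as were most tested genes, so nothing particular to them is read from this separation. Of the 3, Foxp1 was also higher in every iRGC library in CPM. Satb1 stood below the value of a gene with equal CPM and Foxp1 above it. Foxp2 stood above it with all libraries and below it without the third cRGC library, at 1.44 against an equal-CPM value of 1.88. Their iRGC values ran opposite to the pan-RGC sum of the same libraries, highest in the first library and lowest in the third. Tbr1 and Neurod2 overlapped, with log2 differences of -0.68 and 0.08 that turned sign with the library left out. Without the first iRGC library the differences were -0.05 for Eomes, -0.48 for Tbx20, -0.86 for Opn4, 2.21 for Foxp1, 1.28 for Satb1, 1.93 for Foxp2, 0.76 for Tbr1 and 1.02 for Neurod2, against an equal-CPM value of 1.70 in these 5 libraries.

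**Figure D4:**
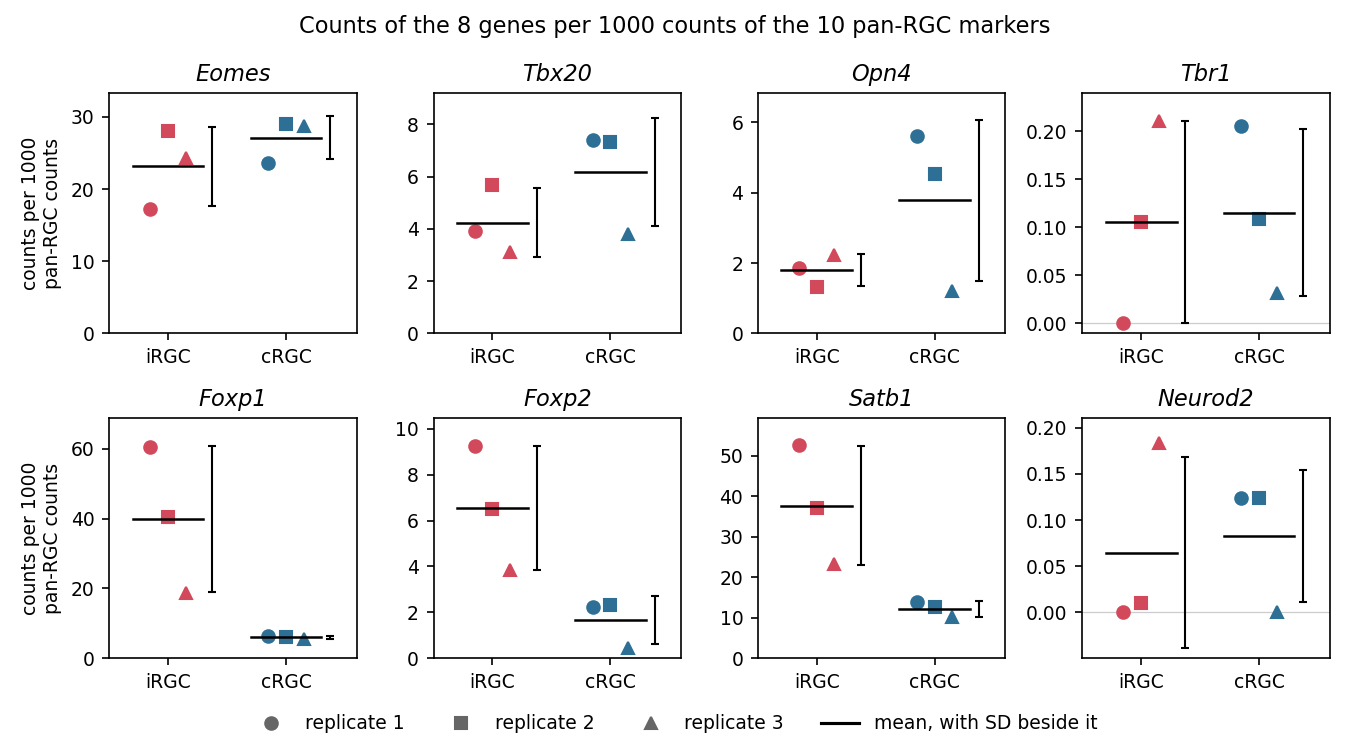
Counts of each of the 8 genes per 1000 counts of the 10 pan-RGC markers (vertical axes, linear), each point a library, the line the mean and the bar beside it the SD, 3 libraries per population. Eomes, Tbx20 and Opn4 overlapped, whereas Foxp1, Foxp2 and Satb1 were higher in all 3 iRGC libraries, as were 79.2% of all tested genes.

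Ratios between the 8 genes within a library do not depend on library scaling, and 4 of them, chosen after the values were seen, are given as a description with no test. The Satb1 count was 87.1%, 91.6% and 125% of the Foxp1 count in the iRGC libraries and 225%, 206% and 183% in the cRGC libraries, a separation already fixed by the opposite directions of both genes in CPM. The Foxp2 count was 15.3%, 16.1% and 20.8% of the Foxp1 count in iRGCs and 36.0%, 37.7% and 8.01% in cRGCs, so the third cRGC library alone lay below the iRGC libraries. The Opn4 count was 10.9%, 4.75% and 9.19% of the Eomes count in iRGCs and 23.7%, 15.6% and 4.21% in cRGCs. The Tbx20 count was 22.8%, 20.3% and 12.9% of the Eomes count in iRGCs and 31.4%, 25.2% and 13.3% in cRGCs. Both of these ratios overlapped, and within cRGCs both were lowest in the third library.

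To describe which genes varied most like each of the 8, the root mean square difference of centred log2 CPM over the 6 libraries was taken against 12110 or 12111 other genes. Drp2 (0.107) and Nefl (0.115) were nearest to Eomes, whose own spread was 1.22. Nearest to Tbx20 were Bmper (0.162) and Col24a1 (0.164), and nearest to Opn4 were Dpp10 (0.310) and Adora1 (0.316), against own spreads of 1.30 and 1.59. Satb1 had Rgl2 (0.0292) and Nectin1 (0.0338) beside a spread of 0.224, and Foxp1 had Rfx3 (0.0422) and Foxn3 (0.0434) beside 0.361. The gene nearest to Foxp2 was Xist (0.240), the X inactivation RNA, followed by Map4k1 (0.292), beside a spread of 0.713. For Tbr1 (Lgals7 0.612, Adgrg2 0.735) and Neurod2 (Cpne4 1.55, Thy1 1.66) the spreads were 2.31 and 2.89. Among the 8 genes themselves, Eomes and Tbx20 (0.469), Tbx20 and Opn4 (0.620) and Eomes and Opn4 (0.881) differed by less than their own spreads. Tbr1, which had few counts, also differed from Opn4 (1.48) and from Neurod2 (1.79) by less than their own spreads. Satb1 and Foxp1 (0.546) differed by more than theirs and moved in opposite directions.

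Because Xist lay nearest to Foxp2, genes of the sex chromosomes were read as well, a choice made after values were seen. Xist stood at 877, 812 and 651 CPM in iRGCs and at 1339, 1106 and 372 CPM in cRGCs. The Y-linked gene Ddx3y stood at 41.2, 62.0 and 58.6 CPM in iRGCs and at 18.6, 25.6 and 36.8 CPM in cRGCs, and Kdm5d at 58.7, 62.3 and 44.7 against 23.1, 35.2 and 62.6 CPM. The third cRGC library was the lowest of its population in Foxp2, Opn4, Tbx20, Tbr1 and Neurod2, and close to the second in Satb1. It was the highest of its population in Eomes and Foxp1. The same library had the lowest Xist of all 6 and the highest Ddx3y and Kdm5d of its population. The part of this in the values of the 8 genes was not tested.

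Genes linked to the 8 factors were read from lists chosen with earlier results of these data known. Of 13 genes of ipRGC signalling or ipRGC markers, 6 were lower in iRGCs, 0 higher and 7 not called. Their median log2 fold change was -1.15, against -0.00 over all tested genes. Over all tested genes 46.4% passed in either direction, 23.1% lower and 23.3% higher. Nothing is read from the number of the 13 that were called. Trpc7, a channel opened by the melanopsin cascade, was 0, 1.05 and 2.36 CPM in iRGCs and 14.6, 14.3 and 5.26 CPM in cRGCs (log2 fold change -3.32, SE 1.05, edgeR with Benjamini-Hochberg adjusted p = 0.0335). As with Opn4, the third cRGC library was the lowest of its population. Igf1, a growth factor gene, fell by 2.63 on the log2 scale, and Adcyap1, which encodes the ipRGC transmitter PACAP, fell by 2.34. Gnaq, a G protein subunit coupled to melanopsin and used in many other cells, fell by 0.66.

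Among 32 other transcription factors of RGC types, 21 were lower in iRGCs, 5 higher and 6 not called, with a median of -1.59. Bnc2 fell by 2.99, Irx4 by 2.37 and Irx6 by 2.33 on the log2 scale, the last 2 being Iroquois homeodomain factors. Higher in iRGCs were Etv1 (2.44), an ETS factor, Neurod1 (1.92), a factor of amacrine and photoreceptor precursors as well, and Foxp4 (1.37), a relative of Foxp1 and Foxp2. Of 28 genes that mark RGC types by other functions, 20 were tested, 7 were higher, 7 lower and 6 not called, with a median of -0.36, where 23.3% of all tested genes were higher and 23.1% lower. Tpbg rose by 2.68, the enkephalin precursor Penk by 2.42 and the adhesion gene Jam2 by 1.24. Calb2, the calretinin gene, fell by 1.80 with overlapping libraries, neurofilament heavy chain Nefh by 1.75 and Hpca by 1.65.

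Genes reported downstream of Satb1 and Tbr1 were 4. Cntn5, the adhesion molecule that acts below Satb1, was 4.36 ± 2.39 against 20.3 ± 3.03 CPM (log2 fold change -2.22, edgeR with Benjamini-Hochberg adjusted p = 0.00217), and its partner Cntnap4 was 5.29 ± 2.29 against 22.3 ± 1.74 CPM (-2.07). Satb1 itself stood at -0.41, and the differences between these values were not tested. Of the genes linked to Tbr1, Cdh8 was lower (log2 fold change -0.88, edgeR with Benjamini-Hochberg adjusted p = 0.0489). Its call was lost with library totals alone (log2 fold change -0.68), without the second iRGC library (-0.87) and without the second cRGC library (-0.50). Sorcs3 was 2.63 ± 1.57 against 1.15 ± 0.172 CPM and did not pass the test, except without the second iRGC library (log2 fold change 1.61, edgeR with Benjamini-Hochberg adjusted p = 0.0941).

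Relatives of the 8 genes by family were called higher in iRGCs more often than lower. Of 30 relatives, 16 were tested, 8 were higher in iRGCs, 1 was lower and 7 were not called, with a median of 1.23, while 14 were too low to test. Of all tested genes, 23.3% were higher and 23.1% lower. Neurod4 (2.44) and Neurog2 (1.99), both proneural factors of precursors, and the opsin relative Rrh (2.18) rose most. Tbx3 rose by 1.75 and Tbx2 by 0.71, both T-box factors of the dorsal eye. Tbx5, the only one called lower (-1.60), stood at 9.10, 14.2 and 5.77 CPM in iRGCs and 10.1, 17.4 and 60.4 CPM in cRGCs, overlapped, and did not pass without the first iRGC, the third iRGC or the third cRGC library, with library totals alone, with limma voom or with the replicate block. Without the third cRGC library its log2 fold change was -0.50. Neurod1, Foxp4 and Tbx5 are among the genes that stand in both this list and that of other RGC type factors.

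Without the first iRGC library, 6 of the 13 ipRGC genes were lower and 0 higher. Of the other RGC type factors 20 were lower and 4 higher, and of the effector genes 7 were lower and 5 higher. Of the reported downstream genes 3 were lower and 0 higher, and of the family relatives 8 were higher and 0 lower. Pan-RGC markers were lower for 9, and retinal progenitor and neurogenic precursor markers were higher for 12 and 8, as with all libraries.

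**Figure D5:**
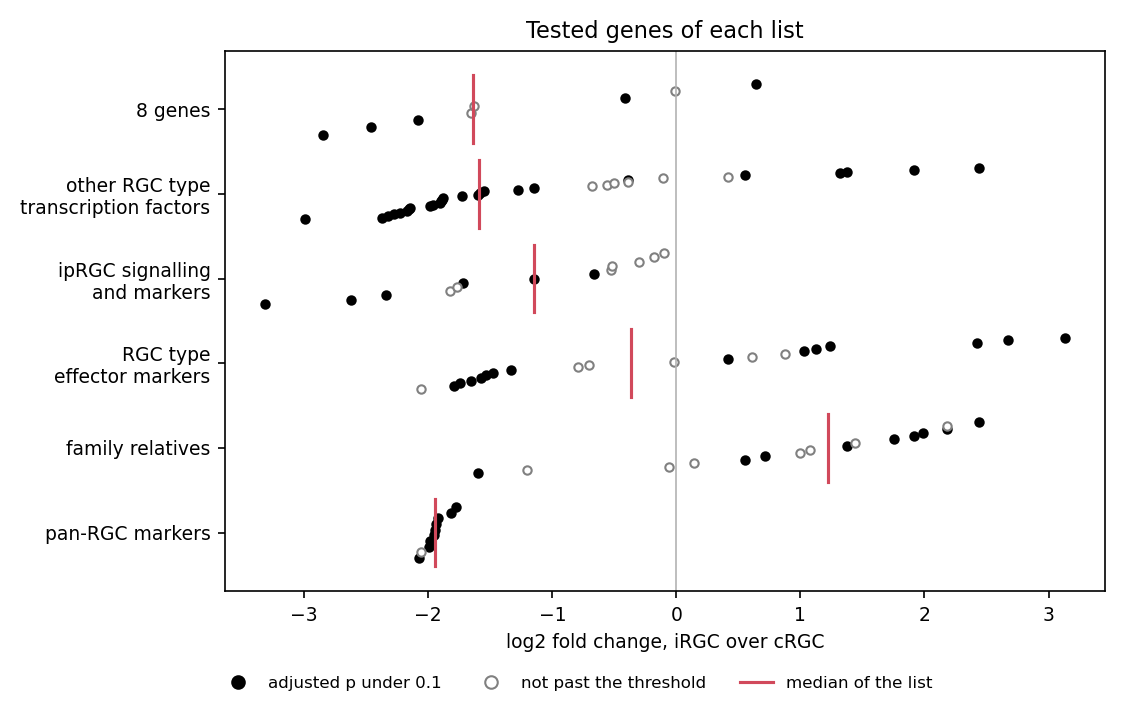
Log2 fold change of iRGC over cRGC (horizontal axis) of the tested genes of each list, each point a gene, filled where the adjusted p was under 0.1, with the median of the list as a line. The 8 genes had a median of -1.64, set by Tbr1 and Neurod2, the other RGC type transcription factors -1.59, the ipRGC genes -1.15, the RGC type effector markers -0.36, the pan-RGC markers -1.95 and the family relatives 1.23.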

How the data were processed

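RNA of GFP-positive cells sorted from dissociated retinas was sequenced as polyadenylated RNA in 6 libraries. The authors aligned reads with HISAT2 2.1.0 to mm10 and counted them per gene with HTSeq 0.11.1 on Ensembl release 89, and the deposited values are raw counts. Reads without a gene were 12.3% to 23.2% of uniquely placed reads and stayed out of totals and tests. The study's own test was DESeq2 1.26.0 at an FDR of 10%, and its threshold was kept. Gene names came from GENCODE M21.

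Counts were tested with edgeR 4.0.16 in R 4.3.3 (filterByExpr, TMM, quasi-likelihood test, Benjamini-Hochberg adjustment, adjusted p under 0.1). Alternatives were other scalings and filters, DESeq2 1.42.0, limma 3.58.1 voom, a replicate block and leaving out each library, and their use for the lists, for Cdh8, Sorcs3 and Tbx5 and for the within-library ratios was added after seeing the data. Replicates of a population differed by a chi-square per degree of freedom of at least 23.7, and none was a copy of another. From each list, at most 3 genes per direction were named, by size of change among called genes averaging 100 normalized counts or more. All reported downstream genes, Slc6a4 and Pou4f2 were named whatever their values, as was the most abundant gene of a marker list (Ccnd1, Hes6, Tfap2b, Nefm, Kdr). Tbx2, Tbx3, Gnaq, Thy1, Sncg, Ephb1 and Igfbp5 were named after their values were seen, and the pan-RGC markers were listed in full. The 8 genes, by name, and the lists were chosen with earlier results of these data known. Promoters came from RefSeq, where 7 of the 8 genes matched.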

Additional observations from a re-analysis of the deposited data

How the results depend on the processing

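Eomes, Tbx20, Opn4 and Foxp1 kept their direction and their call under all 14 alternatives that changed the scaling, filter, tool, block or libraries. Satb1 kept its direction in all 14 and lost its call with library totals alone (log2 fold change -0.21). Foxp2 never passed and turned sign with upper quartile factors (0.0121), library totals alone (0.19), limma voom (0.31) and the replicate block (0.22), and its values with 1 library removed ran from -0.43 to 0.28. The cause was not tested. With a log2 fold change beyond 1 required, the count of genes higher in iRGCs was 0 in place of 1. With the longest transcript in place of all exons, 4 of 8 genes kept their place in the per kilobase order in iRGCs and 2 of 8 in cRGCs. Tbr1 and Neurod2 gave no value with at least 10 counts required in every library.

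Removing 1 library at a time gave log2 fold changes of -2.47 to -1.74 for Eomes, -2.67 to -2.21 for Tbx20, -3.49 to -2.45 for Opn4, -0.45 to -0.32 for Satb1, 0.53 to 0.78 for Foxp1, -3.08 to -0.92 for Tbr1 and -5.57 to -1.07 for Neurod2. Against pan-RGC counts, the log2 differences ranged from -0.40 to -0.05 for Eomes, -0.84 to -0.32 for Tbx20, -1.51 to -0.40 for Opn4, 1.28 to 1.87 for Satb1, 2.21 to 3.06 for Foxp1, 1.44 to 2.63 for Foxp2, -1.64 to 0.76 for Tbr1 and -2.16 to 1.20 for Neurod2, and with the geometric mean of the markers Tbr1 stood at 1.00. The deviations of libraries with the same number correlated at -0.011, -0.0125 and -0.0484, so the numbers do not pair the libraries, and the replicate block gave 6751 calls against 7395.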

Other observations

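Markers of other retinal and vascular cells were read in the same libraries. Amacrine markers were higher in iRGCs for 7 of 8, with sums of 383, 348 and 477 against 135, 179 and 124 CPM and Tfap2b the most abundant, and photoreceptor precursor markers for 4 of 5, at 800, 637 and 620 against 168, 252 and 204 CPM, while Rxrg was lower. Horizontal cell markers were higher for 2 of 4. Of iRGC markers, Zic2 and Zic5 were higher and the other 3 of 5 were not called, Slc6a4 (log2 fold change 0.41), Ephb1 (-0.26) and Igfbp5 (0.09). Without the third iRGC library, 2 iRGC markers were higher and 1 was lower.

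Endothelial markers were higher for all 5 tested of 8, with sums of 460, 636 and 434 against 86.3, 108 and 70.2 CPM. Kdr, the vascular growth factor receptor that made up most of this sum, was 366, 320.5 and 418 against 83.7, 103 and 67.6 CPM, while Pecam1 was 9.65, 53.0 and 0.284 CPM in the iRGC libraries and 0 in cRGC libraries 1 and 3. Of the 8 markers, 3, 1 and 4 were at 0 in the cRGC libraries. The second iRGC library stood apart in mural markers, at 18.8, 131 and 23.5 against 3.73, 4.18 and 3.74 CPM (2 of 5 higher, 3 tested), and in erythroid markers, at 12.2, 92.7 and 15.2 against 0, 5.11 and 0.258 CPM (4 of 5 higher, 4 tested). Microglia markers were higher for 3 of 6 tested and fibroblast markers for 1 of 3. Without the first iRGC library, 4 mural, 5 erythroid, 5 microglia and 2 fibroblast markers were higher, and 1 fibroblast marker was lower. These counts moved with the settings, for microglia between 0 and 5, and their part in the values of the 8 genes was not tested.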
